A study of Danio rerio with 10 samples.

Results

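Amino acid transporter genes were followed by RNA sequencing in zebrafish embryos kept in thallium nitrate (TlNO3), a salt of a toxic monovalent metal ion. The genes were chosen by symbol and level: every gene of the solute carrier families slc1a, slc3a, slc7a, slc36a, slc38a and slc43a with a mean of at least 1 CPM (reads of a gene scaled to a common library total) over the 10 libraries. The rule gave 48 of 54 genes with such a symbol and of 32057 genes in the count files. It was written with earlier results of these data known. The embryos, all wild type, were kept in 0 ppb (5 libraries), 200 ppb (3 libraries) or 800 ppb (2 libraries) between 6 and 48 hours post fertilisation (hpf). Each library is RNA of whole embryos, so every value is a level over all tissues, and fewer cells of a type and less RNA per cell cannot be told apart. Nothing in the labels says that replicates are separate clutches, and the p-values then speak only of the spread among these libraries, which may be technical.

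Amino acids cross membranes through carriers of several families, whose roles are given here as known in mammals. The slc1 carriers take up glutamate and aspartate with sodium or exchange small neutral amino acids. The slc7 carriers move cationic amino acids on their own, or neutral and cationic amino acids as light chains bound to a heavy chain of slc3. The slc38 and slc36 carriers take up neutral amino acids with sodium or protons, and slc43 carriers let large neutral amino acids pass down their gradient. Several of these genes belong to the amino acid response, in which the factor ATF4 raises transcripts for amino acid uptake and synthesis when amino acids are short or proteins are misfolded.

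By symbol the 48 genes held 24 carriers of neutral amino acids, 7 cationic carriers, 7 glutamate carriers, 3 heavy chains and 4 exchangers. The other 3 matched the name rule only: 2 SLC43A3 genes, which carry purine bases, and SLC7A6OS, which lies opposite a carrier gene in mammals and encodes no carrier. The 24 neutral carriers were 12 slc38 genes, 8 light chains and uniporters of slc7 and slc43, 2 neutral slc1 genes and 2 slc36 genes. Of those 8, the 2 SLC7A10 genes carry small neutral amino acids and the others large ones. Symbols are human-style where the gene table gives them so, and 17 of the genes share a symbol with another. Those are told apart here by the end of their Ensembl ID. The gene just inside the level limit was SLC38A11 at 1.36 CPM, and the gene just outside was an SLC1A7 gene (26248) at 0.967 CPM. All 48 passed the filter on low counts.

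Libraries held 12.1 to 48.3 megareads, of which the 48 genes together took 0.181% to 0.252%. The lowest count of any of the genes in any library was 10 reads, and 32 genes had at least 100 reads in every library. Replicate 1 of 200 ppb and of 0 ppb came from a hospital core, and a commercial provider made the remaining 8. The libraries were put into 4 batches without use of the dose. Batch 1 is the hospital core's libraries, by the labels. The provider's 8 were clustered on both deposited count sets, with the number of clusters set to 3 beforehand. Batches 1, 2 and 3 each held a 200 ppb and a 0 ppb library of the same number, and batch 4 held both 800 ppb libraries with 0 ppb replicates 4 and 5. Dose comparisons are therefore given from a fit with the site as a term (the site fit) and from a fit with the batch as a term (the batch fit). In the batch fit, 800 ppb is set against 2 libraries of its own batch. Marker genes of the tissues of a 48 hpf embryo were present in each library, except that 1 yolk and liver marker had no reads in some. Matched by symbol were 23 markers of blood, muscle, lens, macrophages, neurons, pigment cells, pronephros, glia, skin and yolk, and 22 were tested. Of these 22, 0 passed the test at 800 ppb in either fit by edgeR. All genes gave only 0.0431% (site fit) and 0.311% (batch fit), so this says little about tissue make-up. Summed marker levels at 800 ppb lay within the range at 0 ppb, which spans 4 batches, for 8 of the 10 tissues. Pronephros and skin were the exceptions. Glia had 1 marker, GFAP, with 279 to 291 CPM at 800 ppb, below the 300 to 325 CPM at 0 ppb in batch 4. In the other tissues the 800 ppb range overlapped that of the 0 ppb libraries in batch 4.

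At 800 ppb, 2 carriers passed the test in the site fit, SLC1A4 and the SLC7A3 gene 20645, and both rose. In the batch fit 4 carriers rose: these genes, the heavy chain SLC3A2 (37012) and the light chain SLC7A5. No carrier fell in either fit. The 2 carriers of the site fit stand beside 9 of 20867 genes, 0.0431%, called by edgeR's quasi-likelihood test at a Benjamini-Hochberg adjusted p under 0.05. The 4 carriers of the batch fit stand beside 65 genes, 0.311%. Because the genes were chosen with earlier results of these data known, SLC1A4 and SLC7A3 (20645) by name, these counts are no independent support. With the site term DESeq2 also called 2 of the carriers, with 0.206% of all genes, and limma-voom called 1, with 0.0288%. With the batch term each of them called 5 carriers, with 94 genes by DESeq2 and 98 by limma-voom. The 4 carriers of the edgeR batch fit were among the 5 each time, and the further gene is not named here. Where a gene is said below not to pass, the edgeR fits are meant.

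SLC1A4 (ENSDARG00000000551) exchanges alanine, serine and cysteine. It had 48.2, 84.1, 75.5, 103 and 74.6 CPM at 0 ppb, 49.9, 86.9 and 80.4 CPM at 200 ppb and 240.0 and 156 CPM at 800 ppb. Both 800 ppb libraries lay above all 8 others, and the 0 and 200 ppb libraries overlapped. It averaged 198 ± 59.7 CPM at 800 ppb (SD, n = 2) and 77.0 ± 19.7 CPM at 0 ppb (SD, n = 5). The log2 fold change at 800 ppb was 1.24 (SE 0.17, adjusted p = 0.0441) in the site fit and 1.16 (SE 0.16, adjusted p = 0.00368) in the batch fit, a 2.24-fold rise within the batch. Of its class, SLC1A5 (ENSDARG00000099186) exchanges glutamine and other neutral amino acids. SLC1A5 had 64.2, 63.6, 82.9, 93.7 and 66.4 CPM at 0 ppb, 71.3, 60.9 and 93.1 CPM at 200 ppb and 138 and 115 CPM at 800 ppb. Its 800 ppb libraries were also the highest of the 10, but it did not pass the test: the log2 fold change was 0.74 (SE 0.19, adjusted p = 0.897) in the site fit and 0.66 (SE 0.13, adjusted p = 0.0531) in the batch fit. The summed level of SLC1A4 and SLC1A5 was 324 ± 75.9 CPM at 800 ppb (SD, n = 2) and 151 ± 30.5 CPM at 0 ppb (SD, n = 5), and 169 CPM in the 0 ppb libraries of the same batch.

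SLC7A3 (20645, ENSDARG00000020645) is a carrier of arginine, lysine and ornithine. It had 40.2, 52.9, 59.5, 63.3 and 54.9 CPM at 0 ppb, 40.7, 51.9 and 57.8 CPM at 200 ppb and 123 and 100.2 CPM at 800 ppb. Its 200 ppb libraries followed the 0 ppb library of the same number, and both 800 ppb libraries lay above the other 8. It averaged 111 ± 15.8 CPM at 800 ppb (SD, n = 2) and 54.2 ± 8.78 CPM at 0 ppb (SD, n = 5). The log2 fold change at 800 ppb was 0.96 (SE 0.12, adjusted p = 0.0441) in the site fit and 0.92 (SE 0.10, adjusted p = 0.000776) in the batch fit. The other gene of the same symbol, 61566, did not pass, with log2 fold changes of 0.08 (SE 0.29) and 0.02 (SE 0.21).

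**Figure D1:**
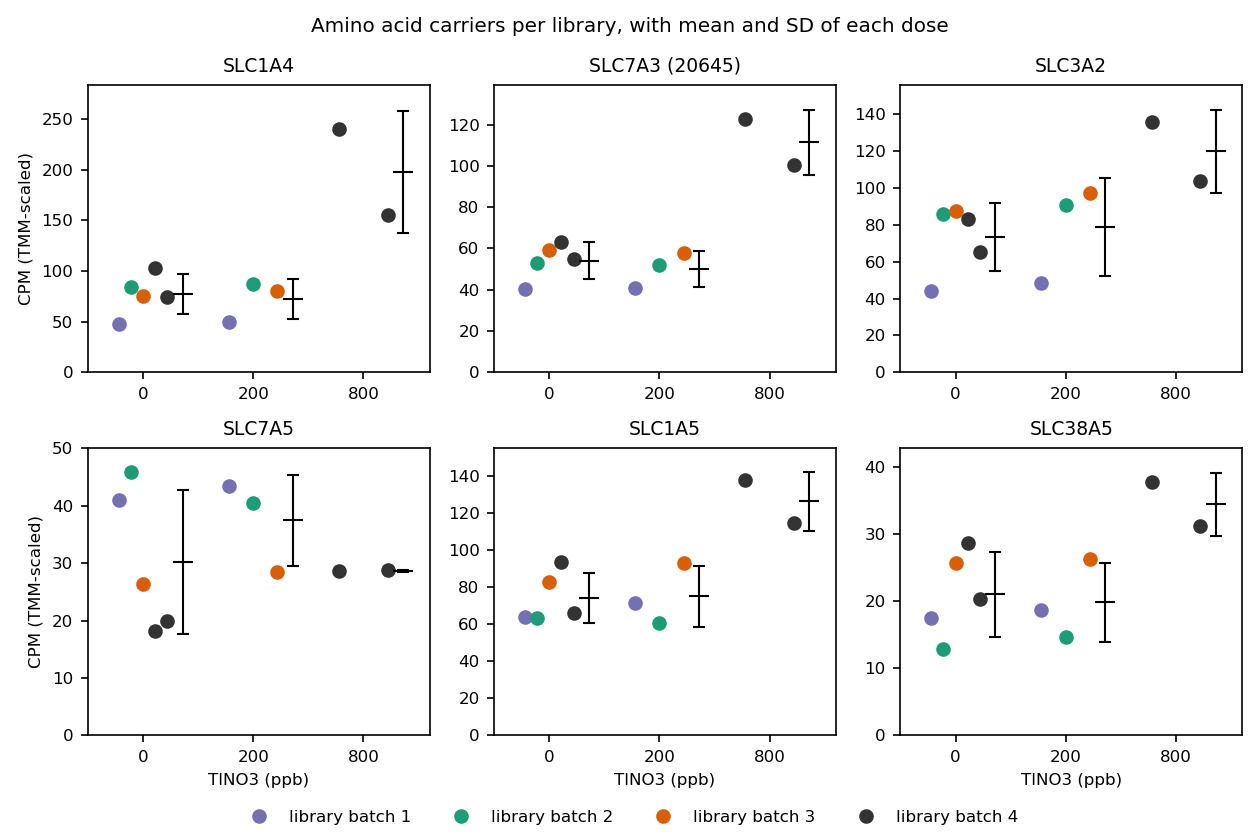
Level of 6 carriers in each library (y axis, CPM on TMM-scaled totals, from 0) by dose (x axis, ppb TlNO3). Each point is a library coloured by batch, and the bar beside each dose is the mean with its SD. Both 800 ppb points of SLC1A4, SLC7A3 (20645), SLC3A2, SLC1A5 and SLC38A5 lie above all 0 ppb points, while those of SLC7A5 lie above only the 0 ppb points of batches 3 and 4.

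The calls in the site fit rested on small margins. Without 0 ppb replicate 1, 3, 4 or 5, any of the 200 ppb libraries or 800 ppb replicate 1, neither SLC1A4 nor SLC7A3 (20645) passed, with adjusted p from 0.0686 to 0.999. Without 0 ppb replicate 2, SLC7A3 alone passed (adjusted p = 0.0442), and without 800 ppb replicate 2, SLC1A4 alone passed (adjusted p = 0.0301). Both passed in the batch fit whichever library was left out. Without 800 ppb replicate 1, the higher of both libraries, their batch-fit log2 fold changes were 0.81 for SLC1A4 and 0.76 for SLC7A3.

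Heavy chains carry slc7 light chains to the cell surface. SLC3A2 (ENSDARG00000037012), the heavy chain of the large neutral and y+L light chains, had 44.2, 85.8, 87.5, 83.2 and 65.4 CPM at 0 ppb, 48.6, 90.8 and 96.9 CPM at 200 ppb and 136 and 104 CPM at 800 ppb. The 800 ppb libraries were the highest of the 10, and replicate 1 of 0 and of 200 ppb, both from the hospital core, the lowest. The log2 fold change was 0.69 (SE 0.12, adjusted p = 0.0239) in the batch fit and 0.56 (SE 0.15, adjusted p = 0.897) in the site fit. The batch-fit call was kept only without 0 ppb replicate 4 or 800 ppb replicate 2. Without any other single library the adjusted p was 0.0519 to 0.169. The related slc3a2a did not pass (batch fit 0.18, SE 0.11), nor did SLC3A1, the heavy chain of the cystine carrier SLC7A9 (batch fit 0.36, SE 0.26).

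Among the light chains and uniporters of neutral amino acids, SLC7A5 (ENSDARG00000099265), the leucine-preferring partner of SLC3A2, stood apart by batch. It had 40.9, 45.9, 26.4, 18.2 and 19.9 CPM at 0 ppb, 43.4, 40.5 and 28.4 CPM at 200 ppb and 28.6 and 28.8 CPM at 800 ppb. The 800 ppb libraries lay inside the range of the 0 ppb libraries as a whole and above both 0 ppb libraries of their own batch. The log2 fold change was 0.59 (SE 0.11, adjusted p = 0.0441) in the batch fit and 0.03 (SE 0.31, adjusted p = 0.991) in the site fit, and 0 of 10 batch fits that each left out a library kept the call. Its adjusted p was then 0.0592 to 0.256. With the replicate number as a block beside the site term, the direction turned, with a log2 fold change of -0.58 at 800 ppb. In that fit the site term takes up 800 ppb replicate 1. The value therefore rests on 800 ppb replicate 2 against libraries of batch 2, without the 0 ppb libraries of its own batch. The other 7 genes of the class did not pass. SLC7A10 (51730), a light chain for small neutral amino acids with few reads here, had 0.871 to 2.11 CPM at 0 ppb, 2.06, 2.17 and 2.32 CPM at 200 ppb and 2.94 and 2.53 CPM at 800 ppb. Its log2 fold change at 800 ppb was 0.81 (SE 0.41, adjusted p = 0.714) in the batch fit, and its lowest count was 14 reads. SLC7A10 (08100) ran from 4.16 CPM in the hospital core's 0 ppb library to 15.1 to 21.6 CPM in the provider's, a spread larger than any change with dose. The uniporter SLC43A2 (61120) had 263 and 179 CPM at 800 ppb and 164 to 263 CPM at 0 ppb. SLC43A2 (36848), SLC7A8 and both SLC43A1 genes had batch-fit log2 fold changes between -0.01 and 0.35.

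Of 12 slc38 genes, 0 passed the test in either fit by edgeR at 800 ppb, where all genes gave 0.0431% (site fit) and 0.311% (batch fit). In each fit 2 of the 12 had an unadjusted p under 0.05, where all genes gave 4.76% and 7.32%. SLC38A5 (ENSDARG00000009901), which moves glutamine, histidine and serine, had 17.5, 12.8, 25.6, 28.7 and 20.4 CPM at 0 ppb, 18.7, 14.6 and 26.2 CPM at 200 ppb and 37.8 and 31.1 CPM at 800 ppb. Both 800 ppb libraries lay above the other 8, with a log2 fold change of 0.68 (SE 0.29, adjusted p = 0.930) in the site fit and 0.50 (SE 0.15, adjusted p = 0.382) in the batch fit. SLC38A2, a known target of the amino acid response, had 67.0 to 84.9 CPM at 0 ppb, 90.7, 69.0 and 77.9 CPM at 200 ppb and 86.3 and 87.0 CPM at 800 ppb. The 800 ppb libraries exceeded all 0 ppb libraries, but the log2 fold change was small, 0.28 (SE 0.11, adjusted p = 0.930) in the site fit and 0.21 (SE 0.09, adjusted p = 0.618) in the batch fit. For slc38a5b, another gene of this class, there was a log2 fold change of 0.15 (SE 0.24) in the site fit and 0.00 (SE 0.11) in the batch fit. SLC38A9, an arginine sensor of the lysosome, and the glutamine carriers of the symbol SLC38A3 had log2 fold changes of -0.10 to 0.11 in the site fit and -0.07 to 0.05 in the batch fit. The remaining slc38 genes, SLC38A4, A6, A7, A8, A10 and A11, had -0.44 to 0.35 in the batch fit, the lowest in SLC38A11. In the slc36 class, slc36a4, a proton-linked carrier, had 19.3 and 21.3 CPM at 800 ppb and 16.4 to 18.5 CPM at 0 ppb. Its log2 fold change was 0.30 (SE 0.14, adjusted p = 0.930) in the site fit, and that of SLC36A1, which releases amino acids from lysosomes, was 0.04 (SE 0.22).

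Cationic carriers other than SLC7A3 (20645) did not pass. SLC7A1, the widespread arginine carrier, had 30.5 and 36.8 CPM at 800 ppb and 21.2 to 34.9 CPM at 0 ppb, and its log2 fold change was 0.24 (SE 0.20) in the site fit and 0.02 (SE 0.12) in the batch fit. SLC7A14, a lysosomal member, had 24.7 and 22.3 CPM at 800 ppb and 25.2 to 30.4 CPM at 0 ppb, so that the 800 ppb libraries lay below each 0 ppb library, with a log2 fold change of -0.14 in both fits (SE 0.12 in the site fit and 0.11 in the batch fit). SLC7A4 and slc7a1a followed the batch: at 0 ppb they had 7.01 and 7.64 CPM in batch 1 and 1.35 and 1.77 CPM in replicate 4. For SLC7A4 the log2 fold change at 800 ppb was 0.84 (SE 0.34, adjusted p = 0.624) in the batch fit and 0.12 (SE 0.45) in the site fit. The arginine carrier slc7a2 had -0.05 (SE 0.20) in the batch fit.

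Glutamate carriers clear the transmitter glutamate from around neurons and supply other cells with acidic amino acids. Of the 7, 0 passed in either fit by edgeR, where all genes gave 0.0431% (site fit) and 0.311% (batch fit). At an unadjusted p under 0.05 there were 2 of the 7 in the site fit, where all genes gave 4.76%. In the batch fit there were 0, where all genes gave 7.32%. SLC1A2, a carrier of glia, had 372, 418, 508, 546 and 529 CPM at 0 ppb, 411, 399 and 475 CPM at 200 ppb and 554 and 504 CPM at 800 ppb. Its groups overlapped, and the log2 fold change at 800 ppb was -0.02 (SE 0.08) in the batch fit, with a 95% interval of -0.19 to 0.14. SLC1A3 (43148), also of glia, had 40.1, 44.4, 44.7, 36.6 and 43.1 CPM at 0 ppb, 46.1, 54.1 and 48.0 CPM at 200 ppb and 29.1 and 38 CPM at 800 ppb. All 3 of its 200 ppb libraries lay above all 0 ppb libraries, and its log2 fold change was -0.34 (SE 0.15, adjusted p = 0.930) at 800 ppb and 0.25 (SE 0.12) at 200 ppb in the site fit. Set directly against 200 ppb, the difference at 800 ppb was -0.59 (SE 0.16, adjusted p = 0.560) in the site fit and -0.45 (SE 0.16, adjusted p = 0.999) in the batch fit. The carrier slc1a6, known from mammalian Purkinje cells, had 2.24 and 2.28 CPM at 800 ppb and 2.87 to 4.86 CPM at 0 ppb (log2 fold change -0.59, SE 0.34, adjusted p = 0.930, site fit). SLC1A7 (34940), a retinal carrier, had 3.08 and 3.71 CPM at 800 ppb and 1.37 to 2.62 CPM at 0 ppb, with a log2 fold change of 0.92 (SE 0.34, adjusted p = 0.930). SLC1A1, slc1a8a and SLC1A3 (04431) had site-fit log2 fold changes of -0.19 to -0.10.

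Exchangers swap one amino acid for another. The cystine and glutamate exchanger slc7a11, which feeds glutathione synthesis, had 7.01, 3.05, 3.91, 5.49 and 4.38 CPM at 0 ppb, 8.16, 2.05 and 2.90 CPM at 200 ppb and 9.53 and 4.72 CPM at 800 ppb. At 800 ppb replicate 1 alone exceeded the 0 ppb range, as did 200 ppb replicate 1, and the log2 fold change was 0.87 (SE 0.34, adjusted p = 0.930) in the site fit and 0.55 (SE 0.31, adjusted p = 0.755) in the batch fit. Without 800 ppb replicate 1 the batch-fit value was -0.06. SLC7A9, the cystine carrier of kidney, had 2.87 and 2.78 CPM at 800 ppb and 1.55 to 2.36 CPM at 0 ppb (log2 fold change 0.36, SE 0.26), and the y+L carriers, which swap cationic for neutral amino acids, had log2 fold changes of 0.17 (SE 0.14, SLC7A6) and -0.03 (SE 0.28, SLC7A7). SLC43A3 genes 57949 and 59682 had site-fit log2 fold changes of -0.12 (SE 0.19) and 0.26 (SE 0.28). SLC7A6OS, the gene that is no carrier, had 44.3 and 44.9 CPM at 800 ppb and 47.7 to 56.3 CPM at 0 ppb, and its log2 fold change was -0.22 (SE 0.16, adjusted p = 0.930) in the site fit.

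**Figure D2:**
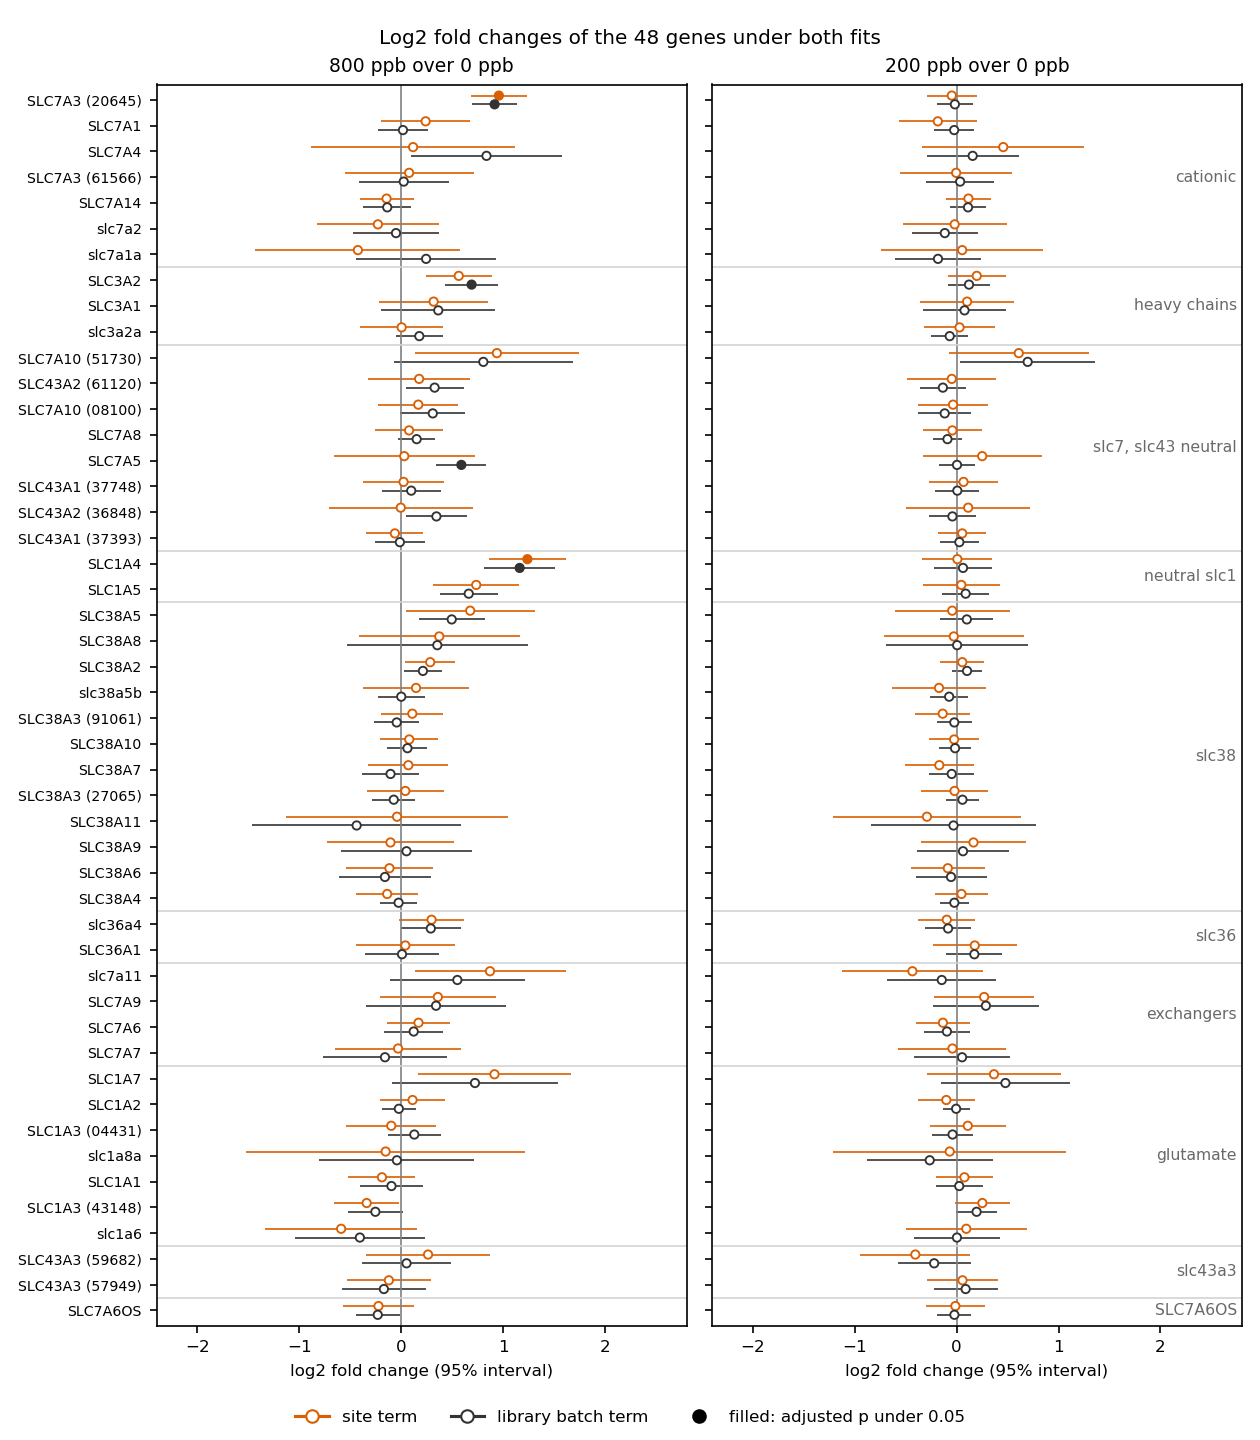
Log2 fold changes of all 48 genes (rows, by class) at 800 ppb over 0 ppb (left) and 200 ppb over 0 ppb (right), with 95% intervals. Orange points are from the fit with the site term and black points from the fit with the library batch term, and filled points have an adjusted p under 0.05. At 800 ppb 2 orange and 4 black points are filled, all to the right of 0, and at 200 ppb none is.

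Taken over all 48 genes, 31 lay above 0 at 800 ppb in each fit, with a median log2 fold change of 0.08 in both, beside -0.01 (site fit) and 0.00 (batch fit) over all genes tested. Of all genes tested, 48.0% lay above 0 in the site fit and 50.5% in the batch fit. At an unadjusted p under 0.05 there were 10 of the 48 in the site fit, where all genes gave 4.76%, and 11 in the batch fit, where all genes gave 7.32%. Of the 10 in the site fit, 9 were higher at 800 ppb and SLC1A3 (43148) was lower. Both 800 ppb libraries lay above all 5 of the 0 ppb libraries for 10 of the 48, against 4.86% of all genes, and below all 5 for 3, against 3.80%. The 10 were SLC1A4, SLC1A5, SLC7A3 (20645), SLC3A2 (37012), SLC38A5, SLC38A2, slc36a4, SLC7A9, SLC7A10 (51730) and SLC1A7 (34940). The 3 were SLC7A14, slc1a6 and SLC7A6OS. Against the 2 libraries of batch 4 alone, 20 of the 48 lay above, where all genes gave 16.5%, and 6 below, where all genes gave 16.3%. In 34 of the 48 genes 800 ppb replicate 1 was higher than replicate 2. The 48 were chosen with earlier results of these data known, so their counts beside all genes are no independent support. SLC1A4 and SLC7A3 (20645), named in the rule, are among the genes with a low p and among those above all 0 ppb libraries.

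Between classes, neutral carriers lay above 0 more often than glutamate carriers at 800 ppb, a description for which no test was made. In the site fit 18 of 24 neutral, 4 of 7 cationic and 2 of 7 glutamate carriers lay above 0, with median log2 fold changes of 0.08, 0.08 and -0.15. In the batch fit the counts were 17 of 24, 5 of 7 and 2 of 7 and the medians 0.13, 0.02 and -0.04. The neutral carriers were not alike: in the batch fit 6 of 12 slc38 genes lay above 0 (median -0.01) and 7 of 8 slc7 and slc43 genes (0.32). For the site fit these were 8 of 12 (0.07) and 6 of 8 (0.05). The carriers past the threshold were 1 neutral and 1 cationic in the site fit and 2 neutral, 1 cationic and 1 heavy chain in the batch fit. The summed level of the 24 neutral carriers was 1447 and 1179 CPM at 800 ppb, against 1003 to 1180.4 CPM at 0 ppb, so that the second 800 ppb library lay within the 0 ppb range. Both 800 ppb sums lay above the 1081 and 1030 CPM in the 0 ppb libraries of the same batch. The cationic sum was 215 and 187 CPM at 800 ppb, above the 126 to 159 CPM at 0 ppb. Without SLC7A3 (20645) the sum of the other 6 was 92.3 and 87.2 CPM at 800 ppb, within the 82.3 to 99.2 CPM at 0 ppb. The glutamate sum was 648 and 607 CPM at 800 ppb, against 471 to 644 CPM at 0 ppb and 639 CPM on average in the 0 ppb libraries of the same batch.

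**Figure D3:**
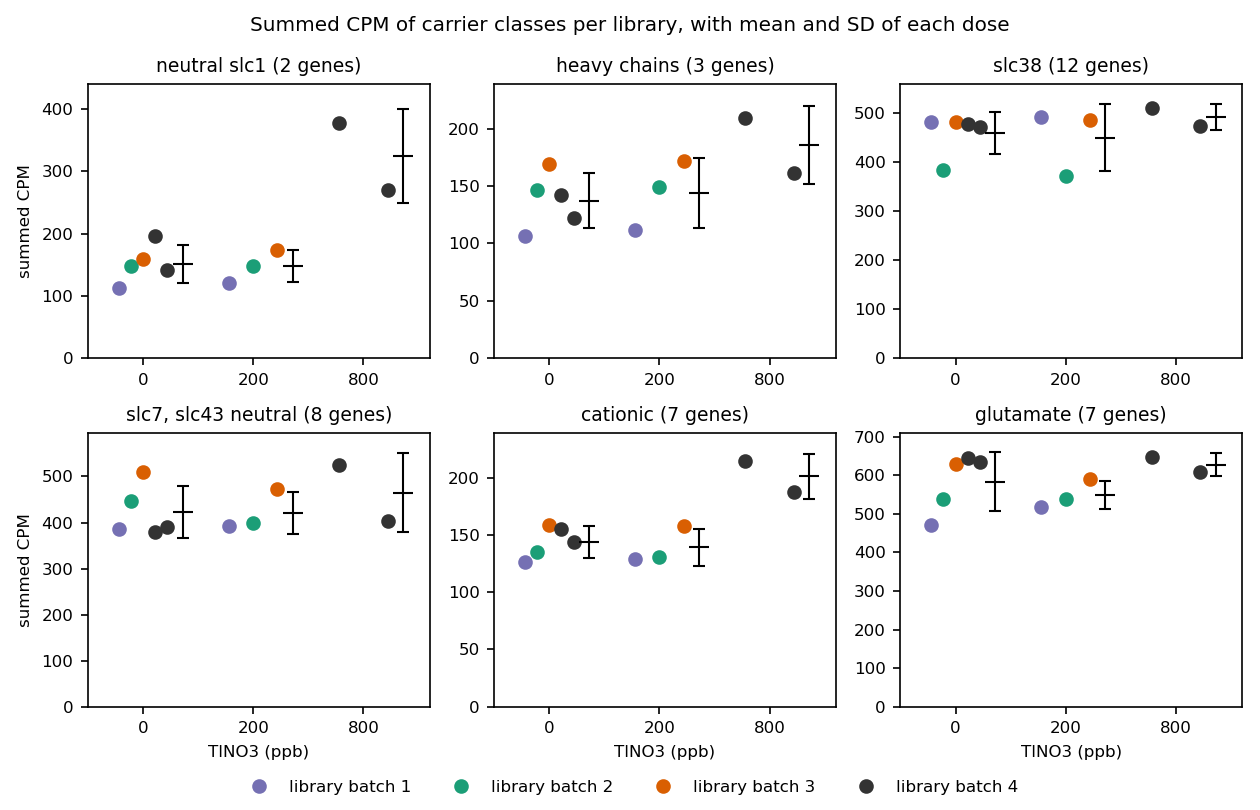
Summed CPM of 6 carrier classes (y axis, from 0) in each library by dose (x axis, ppb TlNO3), with points coloured by batch and the mean and SD of each dose beside them. The neutral slc1 pair sums to 378 and 271 CPM at 800 ppb, above the 112 to 196 CPM at 0 ppb, whereas the slc38 and glutamate sums at 800 ppb lie close to those of the 0 ppb libraries in batch 4.

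At 200 ppb no carrier passed the test, and no gene at all did, 0% of 20867 in either fit by edgeR, and 0 by DESeq2 or limma-voom, which had 147 and 370 genes at an unadjusted p under 0.05. With the replicate number as a block, edgeR called 6 genes over all libraries and 2 over the libraries of these doses alone, and 0 of the 48 either way. Unadjusted p-values under 0.05 were found for 0 of the 48 in the site fit, where all genes gave 0.575%, and for 1 in the batch fit, where all genes gave 1.1%. That gene was SLC7A10 (51730), with a log2 fold change of 0.70 (SE 0.31, adjusted p = 1). Both shares over all genes lie well under 0.05 of the genes tested, the share that exact p-values would give with no change. The edgeR test was therefore conservative at this dose, and the lack of calls does not show a lack of change. The carriers split evenly, 24 of 48 above 0 in each fit, with a median of 0.00 in the site fit. SLC1A4 differed by 0.06 (95% interval -0.22 to 0.35), SLC7A3 (20645) by -0.02 (-0.20 to 0.16), SLC3A2 (37012) by 0.12 (-0.09 to 0.33) and SLC7A5 by 0.00 (-0.17 to 0.18) on the log2 scale in the batch fit. In pairs of the same number, which share a batch, 7 of the 48 were higher at 200 ppb in 3 of 3 pairs, where all genes gave 11.6%, and 7 were lower in 3 of 3, where all genes gave 12.4%. The 7 higher ones were SLC1A4, SLC3A2 (37012), SLC38A5, SLC7A9, SLC7A10 (51730), SLC7A14 and SLC1A3 (43148). The 7 lower ones were SLC7A1, slc7a2, slc3a2a, SLC43A2 (61120), SLC7A10 (08100), SLC7A8 and SLC38A4. In SLC1A4 the 3 pairs differed by little: 49.9 against 48.2, 86.9 against 84.1 and 80.4 against 75.5 CPM.

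**Figure D4:**
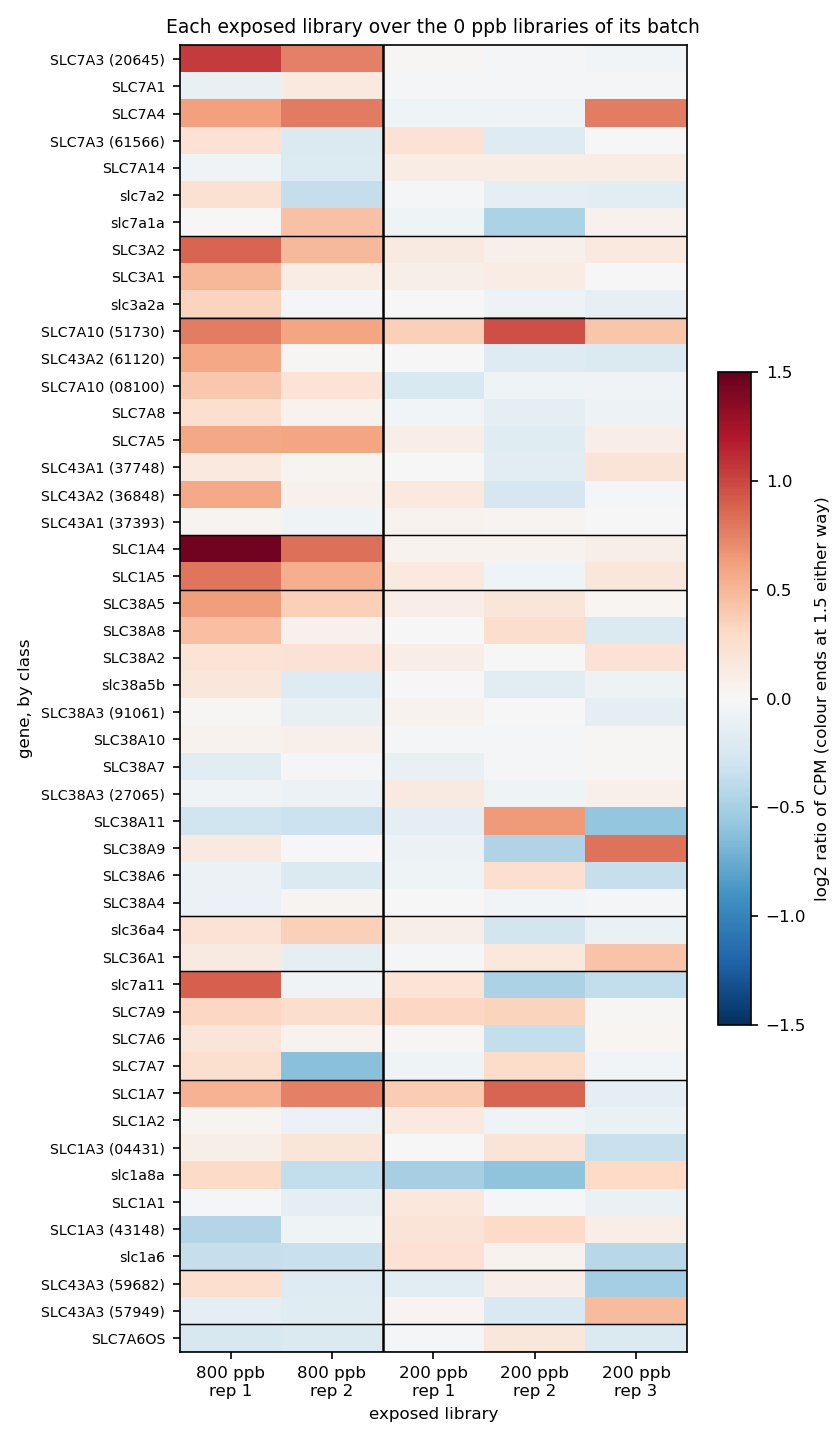
Log2 ratio of CPM of each of the 48 genes (rows, by class) in the 5 exposed libraries (columns) over the 0 ppb library or libraries of the same batch, from blue (lower) to red (higher). The 800 ppb columns are red for SLC1A4, SLC7A3 (20645), SLC3A2, SLC7A5 and SLC1A5, and the 200 ppb columns are near white for these genes.

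The doses were also set against each other directly. Of the 48, 1 passed at 800 ppb against 200 ppb in the batch fit, SLC7A3 (20645), at a log2 fold change of 0.93 (SE 0.13, adjusted p = 0.0281), beside 16 genes in all, 0.0767%. Leaving out 0 ppb replicate 1, 2 or 3 or any 200 ppb library ended this call (adjusted p 0.129 to 0.252), and it held without each of the other 4 libraries (0.000492 to 0.0480). In the site fit its value was 1.01 (SE 0.14, adjusted p = 0.298), and 0% of genes passed by edgeR. At an unadjusted p under 0.05 there were 7 of the 48 and 1852 genes in that fit, 8.88% of all tested. DESeq2 with the site term called 29 genes and 2 of the carriers in this comparison, and limma-voom 0 genes. SLC1A4 was 2.14-fold higher (SE 0.21 on the log2 scale, adjusted p = 0.111) at 800 than at 200 ppb in the batch fit. On the log2 scale SLC7A5 differed in that fit by 0.59 (SE 0.14, adjusted p = 0.380), SLC1A5 by 0.57 (SE 0.17, adjusted p = 0.765) and SLC3A2 (37012) by 0.57 (SE 0.16, adjusted p = 0.642). For SLC7A5 the site fit had the opposite sign, with -0.36 to -1.2e-05 when leaving out each library. Its levels were 43.4, 40.5 and 28.4 CPM at 200 ppb and 28.6 and 28.8 CPM at 800 ppb. In the batch fit, 800 and 200 ppb share no batch, so differences between these doses pass through the 0 ppb libraries of each.

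The spread among the 0 ppb libraries sets what could be seen. The highest 0 ppb library exceeded the lowest by a median of 1.69 times over the 48 genes and by more than 2 times for 17 of them. Replicates 4 and 5, the batch of the 800 ppb libraries, were lower than the mean of replicates 2 and 3 for 22 of the 48. The median standard error over the 48 was 0.20 on the log2 scale at 800 ppb in the site fit and 0.14 in the batch fit. Among the 26 genes found under the same symbol in RefSeq's annotation of another assembly, SLC1A4, SLC1A5 and SLC7A5 overlapped no other gene there, while SLC7A3 and SLC3A2 had no single match. The exchanger slc7a11 overlaps fgfrl1b, slc7a2 overlaps mtmr7a SLC38A11 overlaps scn1laa, and SLC36A1 overlaps atox1, mtnr1al and fat2. Predicted protein-coding genes without a name overlap slc1a6 and SLC38A4, and non-coding ones overlap slc1a8a, SLC3A1, slc3a2a and SLC38A7. The strand setting of the counting is not given in the sources used here, so reads of such partners could not be told apart.

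Carriers of other families and genes of the amino acid response gave the surrounding pathway. The list of other amino acid carriers (slc6, slc15, slc16, slc17, slc25 and others) takes in some carriers of related compounds such as peptides. Of its 39 genes tested, 19 lay above 0 at 800 ppb in the site fit. By edgeR 0 passed there, where all genes gave 0.0431%, and 2 had an unadjusted p under 0.05, where all genes gave 4.76%. In the batch fit 27 of 39 lay above 0 and 2 rose, where 0.311% of all genes passed. SLC6A15, a carrier of branched-chain amino acids and proline, rose by 0.86 (SE 0.14, adjusted p = 0.0103). The related slc6a16b rose by 0.72 (SE 0.14, adjusted p = 0.0454). Their site-fit values were 0.61 (SE 0.18) and 0.41 (SE 0.22), both with an adjusted p of 0.930. SLC6A15 had 15.6 to 25.4 CPM at 0 ppb, 20.2, 23.6 and 26.1 CPM at 200 ppb and 31.0 CPM in each library at 800 ppb. The median of the 39 was -0.03 in the site fit and 0.06 in the batch fit.

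Of 35 amino acid response genes tested, 27 lay above 0 at 800 ppb in the site fit and 32 in the batch fit, with medians of 0.20 and 0.23. Unadjusted p-values under 0.05 by edgeR were found for 12 of the 35 in the site fit, where all genes gave 4.76%. In the batch fit there were 16, where all genes gave 7.32%. ASNS, which makes asparagine, had 27.1 to 33.8 CPM at 0 ppb, 36.3, 37.1 and 32.7 CPM at 200 ppb and 70.3 and 52.5 CPM at 800 ppb. It rose by 1.04 (SE 0.14, adjusted p = 0.0441) in the site fit. In the batch fit 6 rose, by 0.64 to 1.21, where 0.311% of all genes passed. They were ASNS, PHGDH and PSAT1 of serine synthesis, the stress-induced regulator sesn2, STC2 (56680), a secreted glycoprotein, and the transcription factor atf5b. In the site fit the 5 besides ASNS had adjusted p-values of 0.138 to 0.904. PSAT1 had 52.7 to 79.0 CPM at 0 ppb, 65.1, 81.0 and 61.8 CPM at 200 ppb and 160 and 119 CPM at 800 ppb. The rest of the list did not pass in either fit. Among them PSPH, also of serine synthesis, had 38.2 and 33.1 CPM at 800 ppb and 31.8 to 37.7 CPM at 0 ppb. DDIT4 had 34.7 and 31.1 CPM at 800 ppb and 30.6 to 49.1 CPM at 0 ppb. Of the pair of genes for ATF4 itself, atf4b had a batch-fit log2 fold change of 0.29 (SE 0.07, adjusted p = 0.113) and atf4a 0.07 (SE 0.08). No gene of either list passed at 200 ppb by edgeR, and 1 of the 35 and 0 of the 39 had an unadjusted p under 0.05 in the batch fit. Both lists were written with earlier results of these data known, and the comparisons share their 0 ppb libraries.

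**Figure D5:**
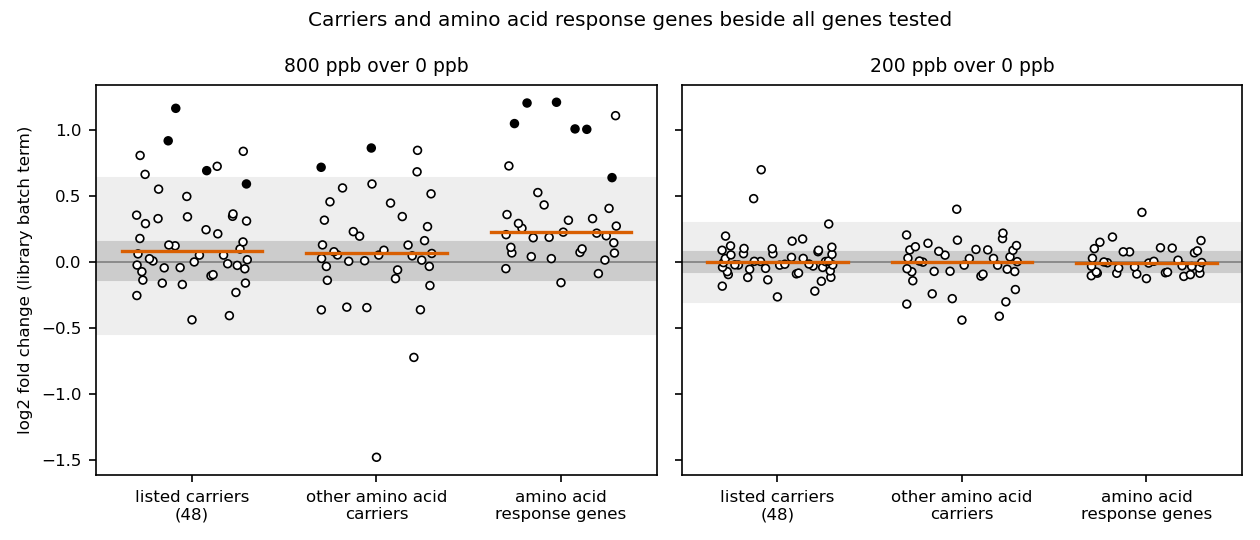
Log2 fold changes from the fit with the library batch term (y axis) of the 48 genes, 39 other amino acid carriers and 35 amino acid response genes, at 800 ppb (left) and 200 ppb (right) over 0 ppb. Each point is a gene, filled where its adjusted p was under 0.05, orange lines are medians, and the dark and light grey bands hold the central 50% and 90% of all genes tested. Filled points appear at 800 ppb and not at 200 ppb.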

How the data were processed

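RNA was sequenced from 10 embryo libraries. The authors deposited a table of read counts per library, with Ensembl gene IDs, and the 32057 IDs found in every table were kept. A further 463 features of the hospital core's tables, at most 0.342% of their counts, were left out. A deposited series table holds log2 CPM values of the authors. Taken off the log scale with a prior count of 2, they came out as whole reads within 0.05 for 100% of the values checked, those under 2000 reads (14178 to 17827 per library), and these recovered reads served as an alternative. In the hospital core's libraries they equalled the deposited counts for 100% of shared genes. In the provider's libraries they did so for 0.691% to 1.71%, with totals over these genes 1.12 to 1.19 times as high. FastQC, cutadapt, STAR, edgeR and the build GRCz11 are named without versions, per the submitters' processing notes. For the counter and the strand setting, the sources used here give nothing.

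The fits used edgeR 4.0.16 in R 4.3.3 on all libraries at once: TMM scaling, filterByExpr on dose, terms for dose and site, a two-sided quasi-likelihood F-test, and Benjamini-Hochberg adjustment over 20867 genes at 0.05. CPM values use TMM-scaled totals, and totals were 12.1 to 48.3 megareads. The batch fit has library batch in place of site. Alternatives were DESeq2 1.42.0, limma-voom (limma 3.58.1), other scalings and filters, a replicate block, and leaving out each library. Tables and plots used Python 3.11.15, pandas 2.3.3 and matplotlib 3.10.9.

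Members, gene lists, classes and the rule for named genes were chosen with earlier results of these data known. That rule took SLC1A4, the SLC7A3 gene 20645, every member past the threshold in either fit, and in each class the 3 smallest p at 800 ppb and the highest level, with other members by range or fold change. Classes follow symbols, and no promoter was searched, because no sequence was used here.

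Batch 1 was set by the site in the labels. The provider libraries were clustered on how the log ratio of deposited counts to recovered reads varied over 13228 genes. The number of provider clusters was fixed at 3, not estimated. Within a cluster r was 0.903 to 0.952, and across clusters 0.748 to 0.818. Common dispersion was 0.0419 in the site fit (6 residual degrees of freedom) and 0.00757 in the batch fit (4). Libraries of 200 and 0 ppb with one number deviated together (r = 0.893, 0.511 and 0.685), so the numbers pair them, and these pairs are batches 1 to 3.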

Additional observations from a re-analysis of the deposited data

Results flagged for a closer look

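In 2 genes one 0 ppb library stood far from the other 4 by the gap to its nearest neighbour. The heavy chain slc3a2a had 78.6 CPM in 0 ppb replicate 3, and the uniporter SLC43A2 (61120) had 263 CPM in the same library. The 200 ppb library of the same batch was likewise the highest of its dose for both, at 71.9 CPM and 227 CPM. Chance alone marks about 1 in 20 such groups, and 48 genes were examined in 5 libraries.

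The difference between the exposed doses was past the threshold for 1 carrier in the batch fit and for 0 in the site fit. SLC7A3 (20645) was higher at 800 ppb than at 200 ppb by 0.93 on the log2 scale in the batch fit (SE 0.13, adjusted p = 0.0281), in 2 of 2 libraries at 800 ppb. In the site fit it was 1.01 (SE 0.14, adjusted p = 0.298). The batch-fit call was lost in 6 of 10 fits that each left out a library, those without 0 ppb replicate 1, 2 or 3 or any 200 ppb library, with adjusted p of 0.129 to 0.252.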

How the results depend on the processing

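The counts of calls moved most. At 800 against 0 ppb, 2 carriers and 9 genes were called in the site fit. The library batch term gave 4 carriers and 65 genes, and with that term, in settings chosen after seeing the data, DESeq2 gave 5 and 94, limma-voom 5 and 98 and recovered reads 5 and 75. With the site term DESeq2 gave 43 genes and recovered reads 15, each with 2 carriers, and limma-voom gave 1 carrier. No site term gave 0 and 0, provider libraries only 0 and 1, upper quartile scaling 1 and 5, and only the libraries of both doses 0 and 1. Leaving out each library in turn, over both fits, gave 0 to 6 carriers and 0 to 114 genes. At 800 against 200 ppb, where the site fit called 0, the batch term gave 1 carrier and 16 genes, DESeq2 2 and 29, and the batch term 1 and 29 with DESeq2, 1 and 15 with limma-voom and 1 and 15 with recovered reads. Only the libraries of both doses gave 10 genes, and leaving out each library 0 to 4 carriers and 0 to 56 genes. The cause of these shifts was not tested.

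With the replicate number as a block and the site term, 18 of the 48 (12 higher and 6 lower, SLC7A5 among the lower) were called at 800 against 0 ppb. They stand beside 6590 genes, 31.6% of all tested. At 800 against 200 ppb the counts were 18 and 6744 genes, 32.3%, and at 200 against 0 ppb 6 genes. The site term takes up 800 ppb replicate 1 there, so both 800 ppb contrasts rest on replicate 2, and these counts say little about carriers. With the block on the libraries of the 2 doses alone, the counts were 0 and 4, 1 and 296, and 2 genes. The 800 ppb libraries share no batch with the same-numbered 0 ppb libraries, so this block sets libraries of different batches against each other. With 2 libraries, deviations from the group mean mirror each other. Their r with the same-numbered 0 ppb libraries (-0.141 and 0.038) therefore cannot show whether the numbers pair them. In the block on 2 doses the class medians at 800 against 0 ppb were 0.28 for neutral, 0.36 for cationic and 0.13 for glutamate carriers, and at 800 against 200 ppb 0.34 for cationic and 0.047 for glutamate carriers. Leaving out each library, the median of glutamate carriers was -0.054 to 0.28 at 200 against 0 ppb and -0.33 to 0.046 at 800 against 200 ppb, and that of cationic carriers -0.24 to 0.21 at 800 against 200 ppb.

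The direction of SLC1A4, SLC7A3 (20645) and SLC3A2 (37012) at 800 against 0 ppb was the same in every alternative. SLC7A5 turned to -0.080 without the site term, -0.60 (adjusted p = 0.405) in the block on 2 doses, and -0.11 to 0.65 when leaving out libraries. In the block with the site term, where the contrast rests on 800 ppb replicate 2, SLC7A5 was -0.58. At 800 against 200 ppb it turned to 0.59 with the batch term, and to 0.59, 0.58 and 0.63 with that term in DESeq2, limma-voom and recovered reads, with -0.36 to 0.65 when leaving out libraries. The other turns were of values that passed no test. SLC1A2 was -0.023 with the batch term in edgeR, -0.020 in DESeq2, -0.023 in limma-voom and -0.023 from recovered reads. SLC7A6 was -0.086 and SLC43A3 (57949) 0.044 in the block on 2 doses, and SLC3A1 was -0.15 in the block with the site term. The heavy chain slc3a2a was -0.012 with upper quartile scaling, -0.0013 with no filter and -0.063 in the block with the site term. SLC36A1 was -0.0045 without the site term, slc38a5b -0.00062 in limma-voom with the batch term, and SLC38A8 -0.13 from recovered reads with the batch term. SLC1A4 at 200 against 0 ppb was -0.088 without the site term and -0.00049 in provider libraries only. Leaving out libraries at 800 against 0 ppb gave -0.12 to 0.37 for SLC7A1, -0.059 to 1.28 for slc7a11, -0.093 to 0.18 for SLC1A2, -0.18 to 0.34 for slc3a2a, -0.13 to 0.58 for SLC43A2 (61120), -0.15 to 0.18 for SLC36A1, -0.19 to 0.31 for slc38a5b and -0.20 to 0.47 for SLC43A3 (59682). At 200 against 0 ppb it gave -0.086 to 0.0089 for SLC7A3 (20645), -0.040 to 0.50 for SLC7A5 and -0.026 to 0.085 for SLC1A4.

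The promoter search was not run. The 800 ppb group has 2 libraries of 1 batch, so its p-values lean on the spread among the other libraries, and where 1 library of that dose is left out the remaining one is assumed to vary like the rest. SLC1A7 (34940), SLC7A10 (51730), SLC38A11, SLC38A8, SLC7A4 and SLC7A9 are among the genes close to the level where counts limit the precision.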
